A study of Mus musculus with 18 samples.

Results

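The collagen chains are the genes that encode the subunits of the collagens, the most abundant proteins of the extracellular matrix. A gene was counted as a collagen chain when an array probe set carried its symbol alone and that symbol had the form Col, number, a, number, and, where a gene had several probe sets, the one brightest on average over all arrays stood for it. This gave 36 chains of 23 collagen types, out of 12393 genes on the array, from 58 probe sets. They were divided into 9 fibrillar chains (types I, II, III, V and XI), 8 basement membrane chains (types IV, XV and XVIII) and 19 other chains (type VI, the fibril-associated, network, anchoring and transmembrane types).

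The arrays measured soleus, a slow postural muscle, and extensor digitorum longus (EDL), a fast muscle, of male C57BL/N6 mice (C57/BL6 in the sample labels) aged 19–20 weeks, with 3 arrays for each of 6 groups. The BION Flown (BF) mice spent 30 days in microgravity aboard the Bion M1 biosatellite, ate paste food and were moved within 12–14 h after landing. The Flight Control (FC) mice lived in a standard animal facility on standard chow, and the BION Ground (BG) mice lived for 30 days on the ground in the flight habitat on the same paste food as BF. BF vs. BG therefore sets flight against the same housing and food, whereas in BF vs. FC and FC vs. BG the housing and food change together with the group and cannot be told apart from it. Transport after landing likewise goes with BF and cannot be told apart from flight.

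Fibrillar collagens form the rope-like fibres of tendon and of the connective tissue sheaths of muscle, and are made mainly by fibroblasts. Each molecule is a triple helix of chains: type I joins Col1a1 and Col1a2 chains, type III is built of Col3a1 alone, and types V and XI sit inside these fibres and control their diameter. Basement membrane collagens lie against the surface of muscle fibres and capillaries, where type IV forms a mesh and types XV and XVIII link it to the surrounding matrix, and type VI forms a beaded network of Col6a1, Col6a2 and one further chain just outside that layer.

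The values were log2 robust multi-array average (RMA) signals, in which a difference of 1 is a change of 2-fold. Array medians lay between 6.17 and 6.26, and the correlation between arrays of 1 group ran from 0.978 to 0.995. The slow fibre markers set the muscles apart as labelled, with an average signal of 12.96 to 13.88 over the soleus arrays and 7.04 to 10.78 over the EDL arrays. The signal of 1 probe set cannot be set against that of another, so levels are compared between groups and not between chains. No detection calls were used, and for the 9 chains with a mean signal under 5 (Col2a1, Col4a3, Col4a4, Col4a6, Col9a2, Col13a1, Col17a1, Col19a1 and Col26a1) a level near the background of the array cannot be told from a low level. A chain was called when the limma contrast had an adjusted p under 0.05 (Benjamini-Hochberg over 22626 probe sets) at any fold change. The labels number the 3 arrays of a group as separate samples without naming the mice, so the p values measure the spread between these samples, which may be technical in part.

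Sequence just before the start of the gene, where transcription factors bind, is shown for 2 pairs of chains. Col1a2 and Col3a1 are fibrillar chains that fell in BF soleus. Col4a5 and Col4a6 lie head to head on the X chromosome and were called in opposite directions in BF vs. BG in soleus. The Col4a6 call came from a low signal and from 1 of its 2 probe sets, as given below. The sequences are those of RefSeq (GRCm38.p6), read 5′ to 3′ on the strand of the gene, and stop at the first base of the annotated gene. Capitals mark 2 motifs searched on both strands. The CCAAT box is CCAAT, which on the opposite strand reads ATTGG. The GC box is GGGCGG, which on the opposite strand reads CCGCCC.
Col1a2, chr6:4505368-4505617, plus strand: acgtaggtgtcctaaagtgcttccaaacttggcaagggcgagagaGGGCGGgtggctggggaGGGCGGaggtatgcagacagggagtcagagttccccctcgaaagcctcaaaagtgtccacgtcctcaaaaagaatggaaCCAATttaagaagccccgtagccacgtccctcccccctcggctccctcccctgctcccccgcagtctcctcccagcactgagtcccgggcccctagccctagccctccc
Col3a1, chr1:45311288-45311537, plus strand: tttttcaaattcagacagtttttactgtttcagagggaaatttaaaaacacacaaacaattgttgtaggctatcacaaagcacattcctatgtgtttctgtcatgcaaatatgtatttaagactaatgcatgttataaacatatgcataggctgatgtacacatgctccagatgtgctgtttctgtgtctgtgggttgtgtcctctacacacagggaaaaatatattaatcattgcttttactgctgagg
Col4a5, chrX:141475169-141475369, plus strand: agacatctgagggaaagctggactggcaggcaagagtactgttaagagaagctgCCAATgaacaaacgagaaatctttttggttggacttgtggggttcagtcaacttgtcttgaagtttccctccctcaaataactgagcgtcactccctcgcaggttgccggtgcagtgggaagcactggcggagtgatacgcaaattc
Col4a6, chrX:141474096-141474326, minus strand: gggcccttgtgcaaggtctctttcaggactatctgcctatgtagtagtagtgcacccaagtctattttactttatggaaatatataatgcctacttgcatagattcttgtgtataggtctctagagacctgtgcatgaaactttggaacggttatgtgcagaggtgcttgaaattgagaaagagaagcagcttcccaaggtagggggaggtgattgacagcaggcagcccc
The Col1a2 stretch held 1 CCAAT box and 2 GC boxes and was 62.0% G or C, whereas the Col3a1 stretch held neither motif and was 35.2% G or C. The Col4a5 stretch held 1 CCAAT box, and the Col4a6 stretch held neither motif. For these 2 genes the start site in RefSeq's promoter table lies inside the annotated gene, so the 250 bases before it differ from the stretches shown, and there a GC box lay 30 bases before the start of Col4a5 and 21 bases before that of Col4a6. The 2 type IV genes are separated by 1274 bases. Over the 250 bases before the start, a CCAAT box was found in 12 of 30 start regions of 27 collagen chains and in 33.8% of all 32851 start regions, and a GC box in 16 of 30 and in 32.7% of all. These are matches of letters and were not tested for binding.

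In soleus, more chains were lower than higher in BF mice, by a margin that in BF vs. BG depended on the processing. In BF vs. FC, 14 of the 36 chains were lower and 1 was higher, where 25.1% of all 12393 genes were called, 16.0% lower and 9.02% higher. In BF vs. BG, 8 chains were lower and 3 were higher, where 23.3% of all genes were called, 12.3% lower and 11.1% higher. The share of chains called was 41.7% in BF vs. FC and 30.6% in BF vs. BG. The fibrillar chains had the lowest median log2 fold change of the 3 classes, −0.99 in BF vs. FC and −0.65 in BF vs. BG, beside −0.005 and 0.03 over all genes. None of the 9 fibrillar chains was called higher, while 6 were lower in BF vs. FC and 4 in BF vs. BG. Of the 8 basement membrane chains, 3 were lower in BF vs. FC, and 2 were lower and 1 higher in BF vs. BG. Of the 19 other chains, 5 were lower and 1 higher in BF vs. FC, and 2 were lower and 2 higher in BF vs. BG, with medians of 0.13 and 0.15. The share of these 19 called was 31.6% in BF vs. FC and 21.1% in BF vs. BG. The BF vs. BG share was near the 23.3% of all genes, and that count is not read as a result about the class. Both comparisons use the same 3 BF arrays, so they are not independent of each other. The tissue was whole muscle, in which fewer cells of a type and less RNA per cell cannot be told apart.

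**Figure D1:**
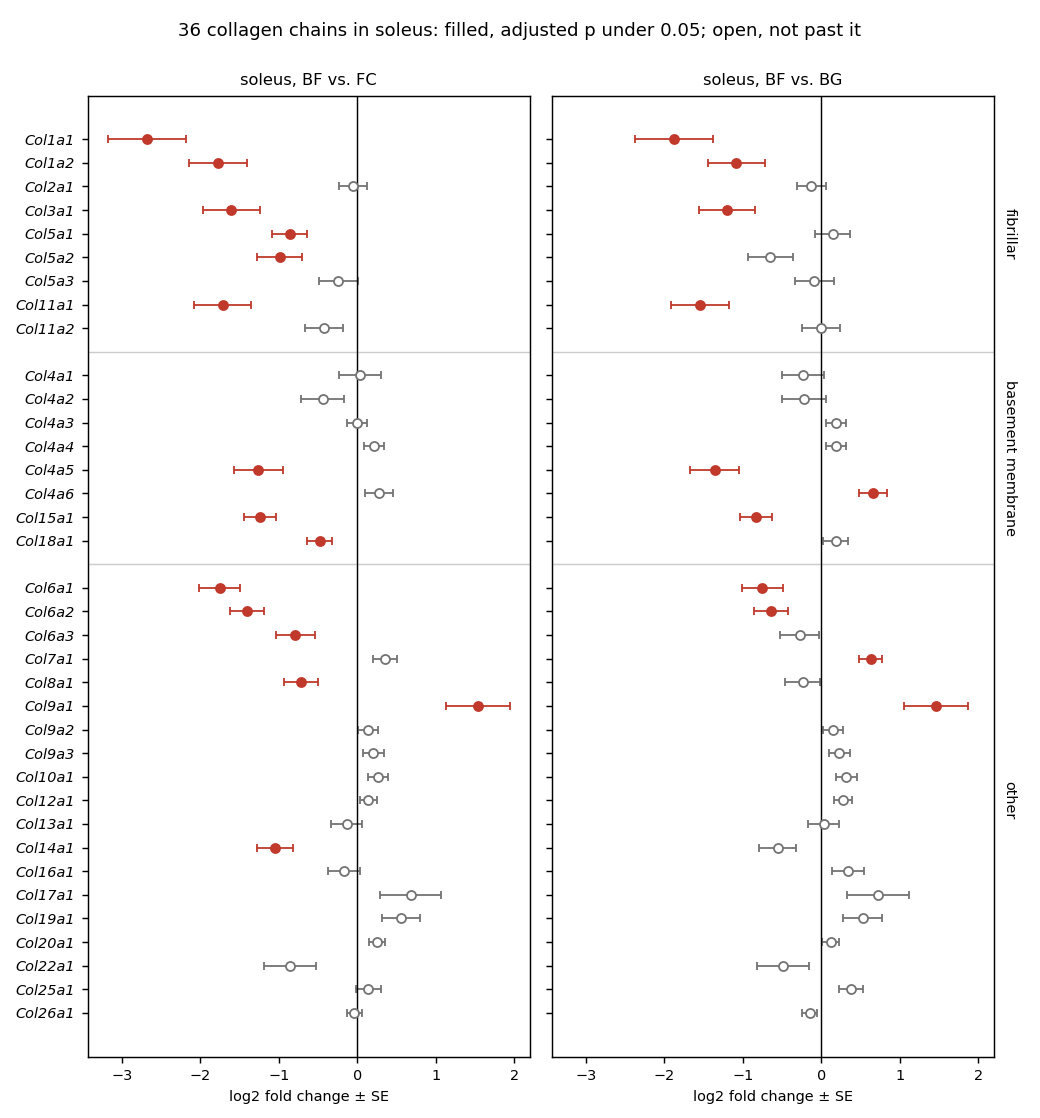
Log2 fold change with its standard error (x axis) of the 36 collagen chains (y axis, by class) in soleus, BF vs. FC on the left and BF vs. BG on the right; filled points have an adjusted p under 0.05. The points of Col1a1 (−2.68 and −1.88) lie farthest to the left, and Col9a1 (1.53 and 1.46) farthest to the right.

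Type I collagen is the main fibre-forming collagen of tendon and muscle sheaths. Col1a1 read 6.71, 6.74 and 7.45 in BF soleus, against 9.32, 10.17 and 9.47 in FC soleus and 9.21, 8.35 and 8.97 in BG soleus. All 3 BF arrays lay below all 6 ground arrays. Its log2 fold change was −2.68 ± 0.50 (SE) in BF vs. FC (6.43-fold lower, adjusted p = 0.000968) and −1.88 ± 0.50 in BF vs. BG (3.67-fold lower, adjusted p = 0.0127). Col1a2, the second chain of the same molecule, read 9.81, 9.99 and 10.78 in BF soleus, against 11.70, 12.38 and 11.84 in FC soleus and 11.51, 10.99 and 11.34 in BG soleus. The BF arrays were again the lowest, with the third BF array, the highest of the 3 for both chains, nearest to the ground arrays. Col1a2 changed by −1.78 ± 0.36 in BF vs. FC (adjusted p = 0.00209) and by −1.08 ± 0.36 in BF vs. BG (adjusted p = 0.0417). The BF vs. BG call of Col1a2 was the weaker: it was lost without BF array 1 (adjusted p = 0.146), BF array 2 (0.104), BG array 1 (0.116), BG array 2 (0.0557) or BG array 3 (0.105). Col1a1 kept an adjusted p of at most 0.0482 in BF vs. BG whichever array was left out.

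Type III collagen forms thin fibres together with type I. Col3a1 read 9.98, 10.29 and 10.29 in BF soleus, against 11.66, 11.66 and 12.06 in FC soleus and 11.44, 11.26 and 11.46 in BG soleus. The BF arrays lay below all ground arrays, with little spread in any of the 3 groups (SD 0.18, 0.23 and 0.11, n = 3 each). The change was −1.61 ± 0.36 in BF vs. FC (adjusted p = 0.00384) and −1.20 ± 0.36 in BF vs. BG (adjusted p = 0.0249). The BF vs. BG call was lost without BF array 1 (adjusted p = 0.0813), BG array 1 (0.0618), BG array 2 (0.0503) or BG array 3 (0.0729).

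Type XI collagen, best known from cartilage, and type V regulate how thick fibrils grow. Col11a1 read 4.14, 4.55 and 5.52 in BF soleus, against 6.27, 6.98 and 6.12 in FC soleus and 6.46, 6.01 and 6.39 in BG soleus. It was lower in BF on every array, by −1.72 ± 0.37 in BF vs. FC (adjusted p = 0.00281) and −1.55 ± 0.37 in BF vs. BG (adjusted p = 0.00695), and both calls held without any 1 array. Col11a2, its partner chain, was not called in either comparison (−0.43 ± 0.24 and −0.00 ± 0.24).

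The type V chains divided by the ground group they were set against. Col5a1 read 7.01, 7.19 and 6.86 in BF soleus, against 7.68, 7.92 and 8.05 in FC soleus and 6.78, 6.78 and 7.06 in BG soleus. The FC arrays were the high ones, and the BF and BG arrays overlapped. Col5a1 thus fell in BF vs. FC (−0.86 ± 0.22, adjusted p = 0.00918), was not called in BF vs. BG (0.14 ± 0.22, adjusted p = 0.671), and was higher in FC vs. BG (1.01 ± 0.22, adjusted p = 0.00851). Col5a2 read 8.03, 8.53 and 8.23 in BF soleus, against 9.28, 9.06 and 9.42 in FC soleus and 9.15, 8.81 and 8.80 in BG soleus. All BF arrays were below all ground arrays, and the change passed the threshold in BF vs. FC (−0.99 ± 0.29, adjusted p = 0.0193) but not in BF vs. BG (−0.65 ± 0.29, adjusted p = 0.11). The BF vs. FC call of Col5a2 was lost without BF array 1 (adjusted p = 0.0706) or FC array 3 (0.071). Col5a3, the third type V chain, read 6.27, 6.69 and 6.0 in BF soleus, against 6.32, 6.66 and 6.72 in FC soleus and 6.48, 6.42 and 6.34 in BG soleus. Its groups overlapped and it was not called. Col2a1, the main collagen of cartilage, lay between 4.68 and 5.43 on all soleus arrays and was not called.

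**Figure D2:**
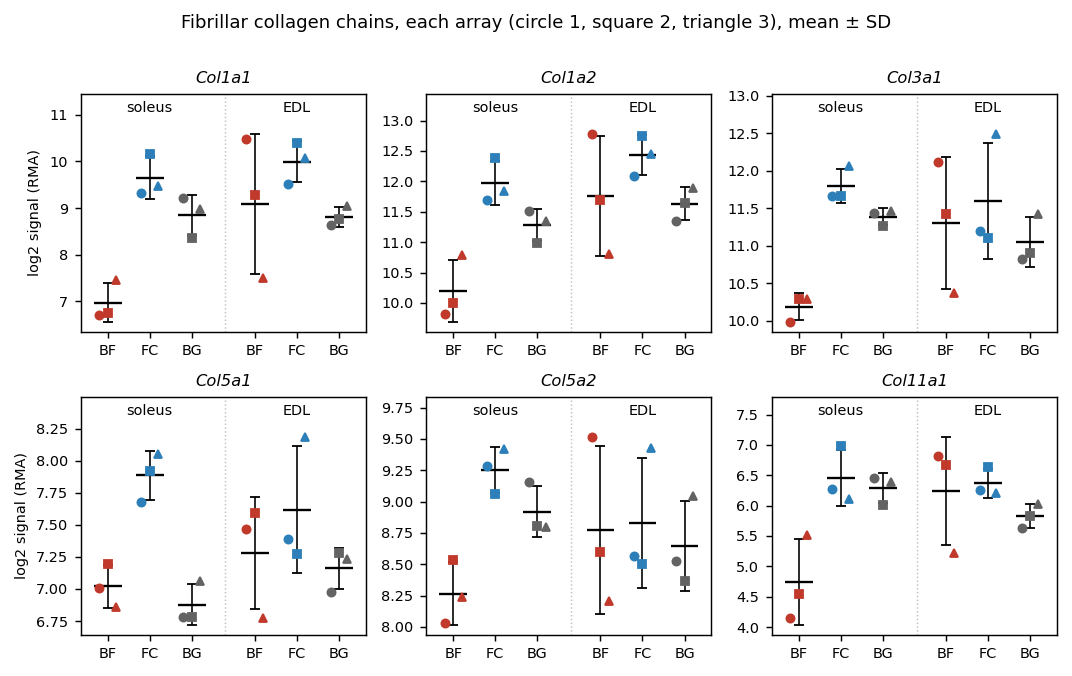
Log2 RMA signal (y axis, its own range in each panel) of 6 fibrillar chains on each array of BF, FC and BG soleus (left of the dotted line) and EDL (right of it); circles, squares and triangles are arrays 1, 2 and 3, the bar is the mean and the whisker the SD. In soleus the BF arrays of Col1a1, Col1a2, Col3a1, Col5a2 and Col11a1 lie below all ground arrays, and in EDL the BF arrays of Col1a1 spread from 7.50 to 10.48.

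The main basement membrane chains did not pass the threshold. Col4a1 and Col4a2, which form the common type IV molecule of all basement membranes and whose genes overlap by 85 bases at their starts on chromosome 8, were called in none of the 11 comparisons. Col4a1 read 10.37, 10.77 and 9.78 in BF soleus, against 10.23, 10.17 and 10.40 in FC soleus and 10.57, 10.55 and 10.50 in BG soleus. Col4a2 read 9.30, 9.60 and 8.58 in BF soleus, against 9.62, 9.52 and 9.67 in FC soleus and 9.50, 9.40 and 9.24 in BG soleus. For both chains the BF arrays were spread more widely (SD 0.50 and 0.53) than the FC arrays (SD 0.12 and 0.07) and the BG arrays (SD 0.03 and 0.13), and they overlapped them. The differences were 0.04 ± 0.27 and −0.44 ± 0.28 in BF vs. FC and −0.24 ± 0.27 and −0.22 ± 0.28 in BF vs. BG.

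The minor type IV chains replace Col4a1 and Col4a2 in some basement membranes. In soleus Col4a5 was called in both BF comparisons, Col4a6 in BF vs. BG alone, and Col4a3 and Col4a4 in neither. Col4a5 read 4.57, 4.71 and 5.23 in BF soleus, against 5.60, 6.06 and 6.62 in FC soleus and 5.78, 6.49 and 6.32 in BG soleus. No BF array reached a ground array, and the change was −1.26 ± 0.31 in BF vs. FC (adjusted p = 0.00749) and −1.36 ± 0.31 in BF vs. BG (adjusted p = 0.00581), both kept without any 1 array. Col4a6, whose gene starts next to that of Col4a5 and runs the other way, read 4.78, 4.43 and 4.48 in BF soleus, against 4.60, 4.22 and 4.04 in FC soleus and 3.92, 3.96 and 3.83 in BG soleus. Here the BG arrays were the lowest, and Col4a6 was higher in BF vs. BG (0.66 ± 0.18, adjusted p = 0.0142) and not called in BF vs. FC (0.28 ± 0.18, adjusted p = 0.282). Its call was lost without BF array 1 (adjusted p = 0.0676) or BG array 3 (0.0538), and its signal was low on all arrays. The second probe set of Col4a6 had the opposite sign and was not called in BF vs. BG (−0.15 ± 0.12, adjusted p = 0.372), so the opposite direction from Col4a5 rests on 1 probe set. That of Col4a5 was lower in BF vs. BG (−0.64 ± 0.15, adjusted p = 0.0065) and not called in BF vs. FC (−0.24 ± 0.15, adjusted p = 0.267). Col4a3 read 4.88, 4.74 and 5.05 in BF soleus, against 5.03, 4.87 and 4.80 in FC soleus and 4.65, 4.76 and 4.71 in BG soleus. Col4a4 read 3.59, 3.10 and 3.33 in BF soleus, against 2.99, 3.34 and 3.05 in FC soleus and 3.27, 3.05 and 3.15 in BG soleus. Neither of these 2 dim chains was called in a soleus comparison.

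Types XV and XVIII, which carry the endostatin family of fragments, lie at the outer face of the basement membrane. Col15a1, whose loss in mice causes a mild muscle disease, read 7.17, 6.87 and 6.57 in BF soleus, against 8.07, 8.01 and 8.25 in FC soleus and 7.66, 7.62 and 7.83 in BG soleus. The 3 groups did not overlap, and BF was the lowest, by −1.24 ± 0.20 in BF vs. FC (adjusted p = 0.000365) and −0.84 ± 0.20 in BF vs. BG (adjusted p = 0.0076), both kept without any 1 array. Col18a1 read 7.51, 7.55 and 7.02 in BF soleus, against 8.12, 7.92 and 7.49 in FC soleus and 7.27, 7.15 and 7.11 in BG soleus. The FC arrays were the high ones, as for Col5a1. Col18a1 was lower in BF vs. FC (−0.48 ± 0.16, adjusted p = 0.0371), although the groups overlapped, and higher in FC vs. BG (0.67 ± 0.16, adjusted p = 0.014). The BF vs. FC call was lost without BF array 3 (adjusted p = 0.175), FC array 1 (0.158) or FC array 2 (0.113). The second probe set of Col18a1 had the same signs and was not called. It changed by −0.27 ± 0.19 in BF vs. FC (adjusted p = 0.324) and by 0.41 ± 0.19 in FC vs. BG (adjusted p = 0.173). With the 6 type IV chains alone as the basement membrane class, 1 was lower in BF vs. FC, and 1 was lower and 1 higher in BF vs. BG.

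Type VI collagen links the basement membrane to the fibrillar matrix, and mutations of its chains cause muscular dystrophies in humans. Col6a1 read 8.30, 8.37 and 8.12 in BF soleus, against 9.84, 10.11 and 10.11 in FC soleus and 8.96, 9.02 and 9.08 in BG soleus. The groups did not overlap, with BF lowest, BG between and FC highest. The change was −1.76 ± 0.26 in BF vs. FC (3.38-fold lower, adjusted p = 0.000183), −0.75 ± 0.26 in BF vs. BG (adjusted p = 0.0473) and 1.0 ± 0.26 in FC vs. BG (adjusted p = 0.0217). Col6a2, 85161 bases from Col6a1 on chromosome 10 and on the same strand, read 8.54, 8.62 and 8.46 in BF soleus, against 9.72, 10.07 and 10.05 in FC soleus and 9.29, 8.98 and 9.25 in BG soleus. It had the same order of groups as Col6a1, with −1.41 ± 0.22 in BF vs. FC (adjusted p = 0.000233), −0.64 ± 0.22 in BF vs. BG (adjusted p = 0.0433) and 0.77 ± 0.22 in FC vs. BG (adjusted p = 0.0296). Col6a3, the longest chain of the molecule, read 8.12, 8.72 and 8.06 in BF soleus, against 9.13, 8.98 and 9.17 in FC soleus and 8.55, 8.54 and 8.64 in BG soleus. It was lower in BF vs. FC (−0.79 ± 0.25, adjusted p = 0.0289) and not called in BF vs. BG (−0.28 ± 0.25, adjusted p = 0.449), where the BF and BG arrays overlapped.

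The BF vs. FC calls of Col6a1 and Col6a2 held without any 1 array, and the other type VI calls did not. In BF vs. BG, Col6a1 was lost without any of the 6 arrays compared (adjusted p = 0.0922, 0.0669 and 0.111 without BF array 1, 2 or 3, and 0.0812, 0.104 and 0.12 without BG array 1, 2 or 3), and also without FC array 1 (0.0536), FC array 2 (0.0577) or FC array 3 (0.0558) of soleus, BG array 3 (0.0564) of EDL or FC array 2 (0.0565) of EDL. Col6a2 was lost in BF vs. BG without BF array 1, 2 or 3 (0.0927, 0.0641 and 0.0938), BG array 1, 2 or 3 (0.115, 0.0528 and 0.12), FC array 2 (0.0519) or FC array 3 (0.0505) of soleus, or BG array 3 (0.0519) of EDL. In FC vs. BG, Col6a1 was lost without FC array 2 or 3 (0.0874 and 0.055) or BG array 1, 2 or 3 (0.0629, 0.056 and 0.058), and Col6a2 without FC array 2 or 3 (0.12 and 0.0754) or BG array 1, 2 or 3 (0.0537, 0.107 and 0.0698). Col6a3 was lost in BF vs. FC without BF array 1 or 3 (0.0927 and 0.097) or FC array 1, 2 or 3 (0.0678, 0.0542 and 0.085).

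**Figure D3:**
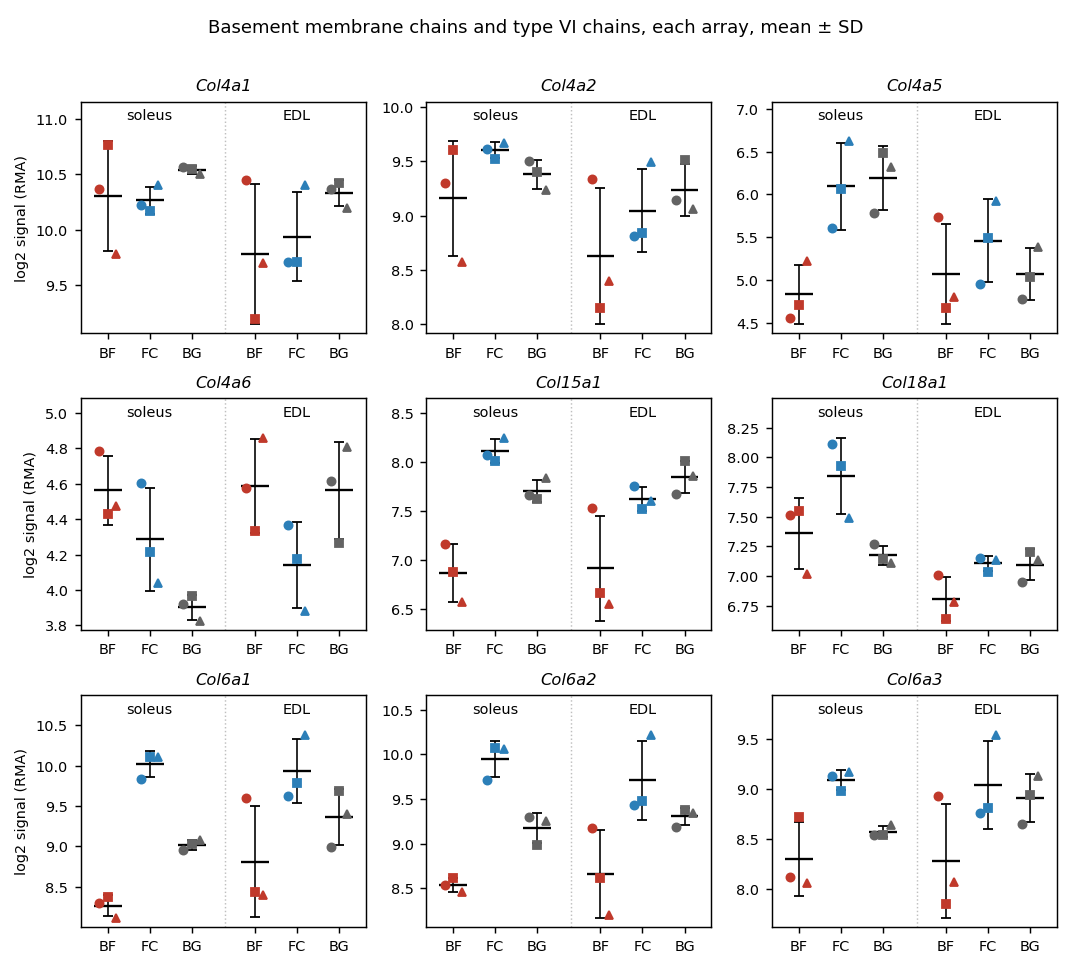
Log2 RMA signal (y axis, its own range in each panel) of 6 basement membrane chains and the 3 type VI chains on each array of BF, FC and BG soleus (left of the dotted line) and EDL (right of it); circles, squares and triangles are arrays 1, 2 and 3, the bar is the mean and the whisker the SD. In soleus Col15a1, Col6a1 and Col6a2 rank BF below BG below FC with no overlap, and the groups of Col4a1 overlap.

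Among the other chains, the fibril-associated collagens, which coat fibres without forming them, were called in both directions in BF vs. FC. Col9a1, a cartilage collagen chain, read 6.41, 5.62 and 7.12 in BF soleus, against 4.80, 4.94 and 4.81 in FC soleus and 4.70, 4.89 and 5.17 in BG soleus. All BF arrays were above all ground arrays, with a wide spread among themselves, and the change was 1.53 ± 0.41 in BF vs. FC (adjusted p = 0.0114) and 1.46 ± 0.41 in BF vs. BG (adjusted p = 0.0169). The calls were lost without BF array 3 (adjusted p = 0.0573 in BF vs. FC and 0.0716 in BF vs. BG), and the BF vs. BG call also without BG array 1 (0.0557). The second probe set of Col9a1 was not called (0.44 ± 0.20, adjusted p = 0.113 in BF vs. FC, and 0.17 ± 0.20, adjusted p = 0.551 in BF vs. BG). The partner chains of type IX, Col9a2 and Col9a3, were not called in soleus by the probe sets followed (0.13 ± 0.13 and 0.20 ± 0.14 in BF vs. FC).

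Col14a1, which binds to type I fibres, read 6.12, 6.86 and 6.40 in BF soleus, against 7.36, 7.25 and 7.91 in FC soleus and 6.78, 6.99 and 7.29 in BG soleus. It fell in BF vs. FC (−1.05 ± 0.23, adjusted p = 0.00353) and did not pass in BF vs. BG (−0.56 ± 0.23, adjusted p = 0.0911), where it passed without BF array 2 (0.0365). Col8a1, a short-chain network collagen of vessels, read 6.76, 7.43 and 6.58 in BF soleus, against 7.64, 7.52 and 7.77 in FC soleus and 7.24, 6.92 and 7.34 in BG soleus. It was lower in BF vs. FC (−0.72 ± 0.22, adjusted p = 0.0265), and the call was lost without BF array 1 or 3 (0.0874 and 0.112) or FC array 1 or 3 (0.0576 and 0.0899). Col7a1, the anchoring fibril collagen of skin, read 6.14, 5.99 and 5.79 in BF soleus, against 5.45, 5.83 and 5.59 in FC soleus and 5.44, 5.45 and 5.15 in BG soleus. It was higher in BF vs. BG (0.63 ± 0.15, adjusted p = 0.00744) without exception over the arrays left out, and not called in BF vs. FC (0.35 ± 0.15, adjusted p = 0.102).

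The other 12 members of this class were not called in BF vs. FC or in BF vs. BG in soleus. Their changes ran from −0.86 ± 0.33 for Col22a1, a collagen of the junction between muscle and tendon, to 0.68 ± 0.39 for Col17a1 in BF vs. FC, and from −0.49 ± 0.33 for Col22a1 to 0.72 ± 0.39 for Col17a1 in BF vs. BG. Single arrays decided some of these: Col22a1 passed in BF vs. FC without soleus BF array 1 (adjusted p = 0.0274), soleus BF array 3 (0.0489) or EDL BF array 3 (0.0448), Col19a1 passed in both comparisons without BF array 2 (0.0039 in BF vs. FC and 0.00569 in BF vs. BG), and Col17a1 passed in both without BF array 3 (0.0485 and 0.0407). In BF vs. BG, Col16a1 also passed without BF array 2 (0.0481) and Col10a1 without EDL FC array 1 (0.0457).

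**Figure D4:**
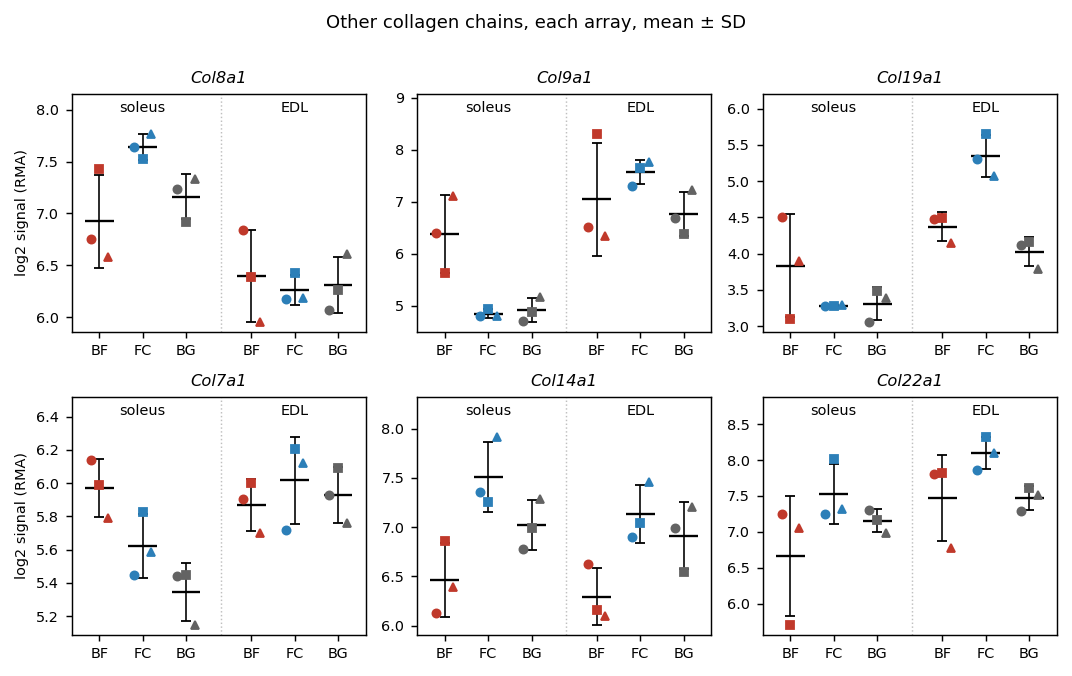
Log2 RMA signal (y axis, its own range in each panel) of 6 of the other collagen chains on each array of BF, FC and BG soleus (left of the dotted line) and EDL (right of it); circles, squares and triangles are arrays 1, 2 and 3, the bar is the mean and the whisker the SD. Col9a1 in BF soleus (5.62 to 7.12) lies above both ground groups of soleus, and Col19a1 is highest in FC EDL (5.07 to 5.65).

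The 2 ground groups differed in soleus in 4 chains, all higher in FC than in BG: Col5a1, Col6a1, Col6a2 and Col18a1, with the values given above. The share of chains called was 11.1%. Over all genes 9.80% were called, 5.78% higher and 4.03% lower. The number called was thus near the share of all genes and is not read as a result about the chains. The fibrillar median in FC vs. BG was 0.41, and 8 of the 9 fibrillar chains had a positive sign. Of the 4 calls, that of Col5a1 held without any 1 array, and that of Col18a1 was lost without FC array 1 (adjusted p = 0.0692), FC array 2 (0.0669) or BG array 3 (0.0568). For the chains Col1a1, Col1a2 and Col3a1 the FC means were above the BG means by 0.81 ± 0.50, 0.69 ± 0.36 and 0.41 ± 0.36, none of which passed the threshold.

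Fewer chains were called between groups in EDL, where the BF arrays differed widely from each other in the fibrillar chains. Col1a1 read 10.48, 9.28 and 7.50 in BF EDL, against 9.52, 10.39 and 10.08 in FC EDL and 8.63, 8.76 and 9.05 in BG EDL. Col1a2 read 12.78, 11.69 and 10.81 in BF EDL, against 12.09, 12.75 and 12.45 in FC EDL and 11.35, 11.64 and 11.90 in BG EDL. Col3a1 read 12.12, 11.42 and 10.37 in BF EDL, against 11.20, 11.10 and 12.49 in FC EDL and 10.82, 10.90 and 11.43 in BG EDL. BF array 1 was the highest and BF array 3 the lowest of the 3 for all of these, and BF array 1 was the highest of the BF EDL arrays for 8 of the 9 fibrillar chains. The median SD of the fibrillar chains was 0.67 in BF EDL, against 0.44 in FC EDL and 0.22 in BG EDL, and it was 0.25 in BF soleus.

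No chain was called in BF vs. BG in EDL, where 0.379% of all genes were called. The fibrillar median was 0.13. Col15a1 came nearest: it read 7.53, 6.66 and 6.55 in BF EDL, against 7.67, 8.0 and 7.86 in BG EDL (−0.93 ± 0.20, adjusted p = 0.055), and it passed without soleus BF array 2 (0.0463), soleus BF array 3 (0.0397) or EDL BF array 1 (0.00275). In FC vs. BG in EDL no chain was called, where 0.0323% of all genes were called. Col19a1 had the largest difference there (1.32 ± 0.25, adjusted p = 0.0605), and passed without soleus BF array 1 (0.044), soleus BF array 2 (0.00964) or EDL BG array 2 (0.0442).

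In BF vs. FC in EDL 3 chains were lower and none was higher, where 3.53% of all genes were called, 2.52% lower. Col6a1 read 9.60, 8.44 and 8.40 in BF EDL, against 9.63, 9.79 and 10.39 in FC EDL and 8.99, 9.69 and 9.40 in BG EDL. Col6a2 read 9.18, 8.62 and 8.20 in BF EDL, against 9.44, 9.47 and 10.22 in FC EDL and 9.19, 9.38 and 9.34 in BG EDL. Both chains, which also fell in BF soleus, had every BF array below every FC array, with −1.12 ± 0.26 (adjusted p = 0.0243) for Col6a1 and −1.05 ± 0.22 (adjusted p = 0.0134) for Col6a2. Col19a1, a fibril-associated chain, read 4.48, 4.49 and 4.15 in BF EDL, against 5.30, 5.65 and 5.07 in FC EDL and 4.11, 4.16 and 3.79 in BG EDL. The FC arrays stood above the rest, and the change was −0.97 ± 0.25 (adjusted p = 0.0386). Col6a3 read 8.93, 7.86 and 8.07 in BF EDL, against 8.76, 8.81 and 9.55 in FC EDL and 8.66, 8.94 and 9.14 in BG EDL, and was not called (−0.75 ± 0.25, adjusted p = 0.107).

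Each of the 3 EDL calls depended on single arrays. Col6a1 was lost without BF array 2 or 3 (adjusted p = 0.0886 and 0.11) or FC array 2 or 3 (0.0619 and 0.13), and Col6a2 without BF array 3 (0.0634) or FC array 3 (0.0715). Col19a1 was lost without any of the EDL arrays compared (0.0724, 0.0625 and 0.134 without BF array 1, 2 or 3, and 0.0761, 0.171 and 0.0615 without FC array 1, 2 or 3) and without soleus FC array 2 (0.0525), soleus FC array 3 (0.0516) or soleus BG array 3 (0.0509). Without the high BF array 1 of EDL, Col6a3 (0.0212), Col14a1 (0.0476) and Col15a1 (0.00413) passed. Col14a1 (−0.84 ± 0.23, adjusted p = 0.0518 with all arrays) also passed without soleus BF array 1 (0.0484), soleus BF array 2 (0.0304), soleus FC array 3 (0.0457) or EDL BG array 2 (0.0395), and Col15a1 (−0.71 ± 0.20, adjusted p = 0.0597 with all arrays) without soleus BF array 3 (0.0485).

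The other type IV and V chains of EDL were not called between groups. Col4a1 read 10.45, 9.19 and 9.70 in BF EDL, against 9.71, 9.71 and 10.40 in FC EDL and 10.37, 10.42 and 10.20 in BG EDL. Col4a2 read 9.34, 8.15 and 8.39 in BF EDL, against 8.81, 8.84 and 9.49 in FC EDL and 9.14, 9.51 and 9.06 in BG EDL. For both of these chains BF array 1 was again the high array of its group. Col4a5 read 5.74, 4.67 and 4.80 in BF EDL, against 4.96, 5.50 and 5.92 in FC EDL and 4.78, 5.04 and 5.39 in BG EDL. Col4a6 read 4.57, 4.33 and 4.86 in BF EDL, against 4.37, 4.17 and 3.88 in FC EDL and 4.61, 4.27 and 4.80 in BG EDL. In EDL BF and BG differed by −0.00 ± 0.31 for Col4a5 and 0.03 ± 0.18 for Col4a6, and the difference from soleus did not pass for Col4a5 (−1.36 ± 0.44, adjusted p = 0.0624). Col4a3 ranged over 4.88 to 5.43 and Col4a4 over 3.21 to 3.44 on the 9 EDL arrays. Col5a1 read 7.47, 7.59 and 6.78 in BF EDL, against 7.39, 7.27 and 8.18 in FC EDL and 6.98, 7.28 and 7.23 in BG EDL. Col5a2 read 9.51, 8.59 and 8.20 in BF EDL, against 8.57, 8.50 and 9.43 in FC EDL and 8.53, 8.36 and 9.05 in BG EDL. The type V groups of EDL overlapped, and Col5a3 ranged over 5.81 to 6.96.

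Whether the change in BF differed between the muscles was tested as the soleus change minus the EDL change. For BF vs. BG 1 chain was called, where 9.26% of all genes were called. Col11a1 changed by −1.55 in soleus and by 0.41 ± 0.37 in EDL, where it read 6.82, 6.68 and 5.22 in BF EDL, against 5.64, 5.84 and 6.03 in BG EDL (difference −1.95 ± 0.52, adjusted p = 0.0293). Col1a1 had a larger but more variable difference (−2.15 ± 0.70, adjusted p = 0.0615), and so it was not shown to differ between the muscles. Without EDL BF array 3, which had the lowest type I and III signals of its group, the differences of Col1a1 (adjusted p = 0.0036), Col1a2 (0.0254) and Col3a1 (0.0142) passed. That of Col1a1 also passed without soleus BF array 3 (0.0448), and that of Col3a1 (−1.46 ± 0.51, adjusted p = 0.0772 with all arrays) without EDL FC array 3 (0.0427). The Col11a1 difference was lost without soleus BF array 1 (0.077), soleus BG array 1 or 3 (0.0535 and 0.0653), EDL BF array 1 or 2 (0.0701 and 0.0734) or EDL BG array 2 or 3 (0.0522 and 0.0532). Of the remaining chains, Col4a5 passed without soleus BF array 3 (0.0373) or soleus BG array 1 (0.0486), Col7a1 without soleus BF array 3 (0.032) or EDL FC array 1 (0.0406), Col9a1 without EDL BF array 2 (0.0245) and Col17a1 without soleus BF array 3 (0.0192) or EDL BG array 1 (0.0472).

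For BF vs. FC 1 chain was called, where 2.04% of all genes were called. Col19a1 read 4.51, 3.10 and 3.89 in BF soleus, against 3.28, 3.28 and 3.29 in FC soleus, and was lower in BF in EDL, as given above (difference 1.52 ± 0.35, adjusted p = 0.0325). Both values of soleus are low signals. The second probe set of Col19a1, of similar mean signal, had a difference of −0.02 ± 0.19 (adjusted p = 0.976) and was not called in BF vs. FC in EDL (0.04 ± 0.14, adjusted p = 0.919). The call was lost without soleus BF array 1 (0.0554), soleus FC array 1, 2 or 3 (0.0627, 0.0768 and 0.0733), EDL BF array 1 or 3 (0.0656 and 0.0731) or EDL FC array 1 or 2 (0.0648 and 0.0842). Col9a1 had a difference of 2.06 ± 0.58 that did not pass (adjusted p = 0.0802), and passed without soleus BF array 2 (0.0251) or EDL BF array 2 (0.00478). Col1a1 passed without EDL BF array 3 (0.0163), Col11a1 without soleus BF array 3 (0.029) or EDL BF array 3 (0.0232), and Col8a1 without soleus BF array 2 (0.0477).

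**Figure D5:**
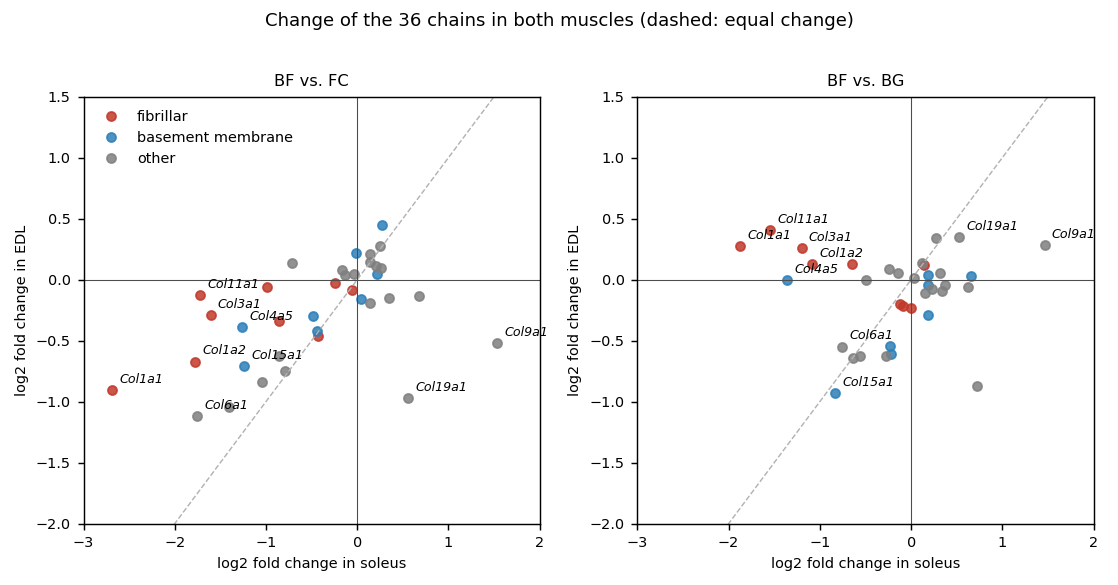
Log2 fold change of the 36 chains in soleus (x axis) and in EDL (y axis), BF vs. FC on the left and BF vs. BG on the right; the dashed line marks an equal change in both muscles, and colours mark the class. Col1a1 lies at −2.68 in soleus and −0.91 in EDL in BF vs. FC, and at −1.88 and 0.28 in BF vs. BG.

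Between soleus and EDL the share of chains called was 11.1% in BF, 16.7% in BG and 11.1% in FC mice. Over all genes it was 12.4%, 17.0% and 16.4%, so in BF and BG the chains were near the share of all genes. In BF mice 1 chain was higher and 3 were lower in soleus than in EDL, where 12.4% of all genes were called. Col1a1 (−2.12 ± 0.50, adjusted p = 0.0129), Col1a2 (−1.56 ± 0.36, adjusted p = 0.0128) and Col11a1 (−1.50 ± 0.37, adjusted p = 0.016) were the lower ones, and Col18a1 (0.55 ± 0.16, adjusted p = 0.0351) the higher one. In BG mice 2 chains were higher and 4 lower, where 17.0% of all genes were called, and in FC mice 2 were higher and 2 lower, where 16.4% were called. By the probe sets followed, none of the 9 fibrillar chains was called between the muscles in either ground group, while the second probe set of Col11a1 was higher in soleus in BG (1.15 ± 0.37, adjusted p = 0.0408). Col1a1 differed there by 0.03 ± 0.50 in BG and by −0.34 ± 0.50 in FC.

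Col9a1 and Col19a1, whose genes lie next to each other on chromosome 1, 4944 bases apart and with their ends facing, were both low in soleus. Col9a1 read 4.80, 4.94 and 4.81 in FC soleus and 7.31, 7.65 and 7.76 in FC EDL (−2.72 ± 0.41, 6.6-fold lower in soleus, adjusted p = 0.000227). In BG mice it read 4.70, 4.89 and 5.17 in soleus and 6.69, 6.38 and 7.23 in EDL (−1.85 ± 0.41, adjusted p = 0.00488). Col19a1 was lower in soleus by −2.06 ± 0.25 in FC (adjusted p = 3.65e-05, against 0.25 ± 0.14, adjusted p = 0.241, for its second probe set) and by −0.71 ± 0.25 in BG, which did not pass (adjusted p = 0.0596) but did without soleus BF array 1 (0.019) or soleus BF array 2 (0.00907). In BF mice, in which Col9a1 read 6.51, 8.30 and 6.33 in EDL, neither gene passed (−0.67 ± 0.41 and −0.54 ± 0.25 for soleus vs. EDL). Col8a1 was higher in soleus than in EDL, by 1.38 ± 0.22 in FC (adjusted p = 0.000428) and 0.85 ± 0.22 in BG (adjusted p = 0.014). In FC it read 7.64, 7.52 and 7.77 in soleus and 6.17, 6.43 and 6.18 in EDL, and in BG 7.24, 6.92 and 7.34 in soleus and 6.06, 6.26 and 6.6 in EDL. Col18a1 was higher in FC soleus than in FC EDL (7.15, 7.04 and 7.13), by 0.74 ± 0.16 (adjusted p = 0.00454). The second probe set of Col18a1 was not called between the muscles in FC (0.33 ± 0.19, adjusted p = 0.272) or in BF (0.37 ± 0.19, adjusted p = 0.211). In BG, Col4a5 was higher in soleus (1.12 ± 0.31, adjusted p = 0.0212), and Col4a6 (−0.66 ± 0.18, adjusted p = 0.0173), Col7a1 (−0.58 ± 0.15, adjusted p = 0.0135) and Col4a3 (−0.51 ± 0.13, adjusted p = 0.0113) were lower.

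The 4 calls between the muscles in FC and that of Col9a1 in BG held without any 1 array, and the other calls between the muscles did not. Each chain called in FC had a second probe set, and 1 of these was called together with the one followed. For soleus vs. EDL in BG 1 second probe set was called together with the one followed. In BF, Col1a1 was lost without soleus BF array 2 (0.0623) or EDL BF array 1 (0.0565), Col1a2 without the same arrays (0.064 and 0.0564), Col11a1 without soleus BF array 1 or 2 (0.0637 and 0.0741) or EDL BF array 1 or 2 (0.0758 and 0.0616), and Col18a1 without soleus BF array 1 or 2 (0.108 and 0.157) or EDL BF array 2 or 3 (0.117 and 0.0767). In BG, Col4a3 was lost without EDL array 2 (0.0652), Col4a5 without soleus array 2 or 3 (0.0871 and 0.0727) or EDL array 1 or 2 (0.071 and 0.058), Col4a6 without soleus array 3 (0.0638) or EDL array 3 (0.0898), Col7a1 without soleus array 3 (0.0747) or EDL array 2 (0.0639), and Col8a1 without soleus array 3 (0.0633) or EDL array 1 (0.0554). In BF, Col3a1 (−1.12 ± 0.36, adjusted p = 0.0521) passed without EDL BF array 3 (0.0118) or EDL FC array 3 (0.0252), Col4a2 without soleus BF array 3 (0.047) or EDL BF array 1 (0.0486), Col17a1 without soleus BF array 3 (0.0422), Col19a1 without soleus BF array 1 (0.0223) and Col22a1 without EDL BF array 3 (0.0427). In FC, Col7a1 passed without EDL FC array 1 (0.0297) and Col15a1 without EDL BF array 1 (0.0276).

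The genes that make, trim and cross-link collagen were compared in the same way. In soleus 16.0% of all genes were lower and 9.02% higher in BF vs. FC. In BF vs. BG 12.3% were lower and 11.1% higher, and in FC vs. BG 5.78% were higher. In BF vs. FC in EDL 3.53% were called. The counts of these and the following lists stand beside those shares. For modification and for cleavage the BF vs. BG counts were near them and are not read as a result about the list. The same holds for the collagen receptors, in BF vs. BG and in BF vs. FC. The BF vs. BG counts for breakdown and for the TGF-beta pathway were below those shares. Of 16 measured genes for modification and folding of collagen chains, 6 were lower and none higher in BF vs. FC in soleus, and 2 were lower in BF vs. BG, of which 1 stood without BF array 2 or BG array 2 or 3. Plod1, a lysyl hydroxylase, fell in both (−0.85 ± 0.13, adjusted p = 0.000227, and −0.64 ± 0.13, adjusted p = 0.0024). P3h4 (−0.85 ± 0.18, adjusted p = 0.0027) and Crtap (−0.65 ± 0.15, adjusted p = 0.00409), partners of prolyl 3-hydroxylase and of lysyl hydroxylase complexes, and Colgalt1 (−0.63 ± 0.14, adjusted p = 0.00438), which adds galactose to collagen, fell in BF vs. FC. Of 9 genes for procollagen cleavage and cross-linking, 3 were lower in BF vs. FC, and 1 was lower and 1 higher in BF vs. BG. Pcolce, the enhancer of the enzyme that removes the end of procollagen I, fell by 1.34 ± 0.27 in BF vs. FC (adjusted p = 0.00195) and fell by 1.01 ± 0.27 in BF vs. BG (adjusted p = 0.0138), while Bmp1, the enzyme itself, was higher in BF vs. BG (0.53 ± 0.14, adjusted p = 0.0139). Loxl3, a lysyl oxidase that cross-links collagen, fell in BF vs. FC (−0.74 ± 0.14, adjusted p = 0.00114), as did Pcolce2 (−0.69 ± 0.24, adjusted p = 0.0435). Leaving out soleus BF array 1 ended the Pcolce call in BF vs. BG (0.0599), leaving out soleus BG array 3 ended that of Bmp1 (0.069), and Pcolce2 was lost without each of 10 arrays in turn (highest adjusted p 0.228).

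Of 13 genes of collagen breakdown and its inhibitors, 5 were lower in BF vs. FC in soleus and none was called in BF vs. BG. Mmp2, a gelatinase (−1.32 ± 0.25, adjusted p = 0.00108), Fap, a fibroblast protease (−1.0 ± 0.22, adjusted p = 0.00391), Mrc2, the receptor that takes up collagen (−0.90 ± 0.21, adjusted p = 0.00563) and Timp2, an inhibitor (−0.72 ± 0.20, adjusted p = 0.0152) were the largest. Mmp2, Fap and Timp2 were also higher in FC vs. BG, in which 4 of the 13 rose. The Timp2 call in BF vs. FC was lost without soleus BF array 1 or soleus FC array 2 (highest adjusted p 0.0648), and of the 4 FC vs. BG calls that of Timp2 alone held without any 1 array, the other 3 being lost without FC array 1, FC array 2 or BG array 1. Of 7 collagen receptors, Itgb1, the common beta chain of the collagen-binding integrins, was higher in BF vs. FC (0.97 ± 0.13, adjusted p = 9.41e-05) and none was lower, and in BF vs. BG Cd36 was lower (−0.75 ± 0.16, adjusted p = 0.00314).

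Of 17 genes of the TGF-beta pathway, the main inducer of collagen genes in fibroblasts, 8 were lower and 1 higher in BF vs. FC in soleus, 1 was lower in BF vs. BG and 5 were higher in FC vs. BG. Tgfb3, a ligand, fell in both (−1.30 ± 0.19, adjusted p = 0.000142, and −0.77 ± 0.19, adjusted p = 0.00808). Tgfbi, a matrix protein induced by the pathway (−1.28 ± 0.32, adjusted p = 0.00744), Ccn2, an induced matricellular protein (−1.11 ± 0.36, adjusted p = 0.0338), and Ltbp2, a matrix protein of the latent TGF-beta binding family (−1.05 ± 0.19, adjusted p = 0.000759), fell in BF vs. FC. Without soleus BF array 3, FC array 2 or FC array 3 the count fell to 5 of 17, and Ccn2 was lost without each of 4 arrays in turn (highest adjusted p 0.115). In FC vs. BG, Ltbp1 alone of the 5 held without any 1 array, and the other 4 were lost without BG array 3. Of 12 laminins and other basement membrane proteins, 5 were lower in BF vs. FC, and 3 were lower and 3 higher in BF vs. BG. Without BF array 2 or BG array 3, 1 of the 3 higher ones stood in BF vs. BG, and without FC array 3 the calls of Agrn and Lamb1 were lost in BF vs. FC (highest adjusted p 0.0599 and 0.111). Lamb2 and Lama2, chains of the muscle laminin, fell in both comparisons (Lamb2 −1.05 ± 0.16 and −0.71 ± 0.16, Lama2 −0.85 ± 0.15 and −0.71 ± 0.15), and Lama5 was higher in BF vs. BG (0.88 ± 0.16, adjusted p = 0.00143). In EDL the same lists had 1 gene lower each for modification (P4ha1), cleavage (Pcolce) and the TGF-beta pathway (Tgfb3) in BF vs. FC, 2 receptors higher (Cd36 and Itgb1), and no gene called for breakdown or laminins. All 5 of those EDL genes were lost when some single array was left out.

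Markers of other cell types and tissues were compared in the same samples. Over all genes in soleus 16.0% were lower and 9.02% higher in BF vs. FC, and 12.3% lower and 11.1% higher in BF vs. BG. The BF vs. BG counts of smooth muscle and pericyte markers and of macrophage markers were near or below these shares. So were the BF vs. FC counts of macrophage markers and of fibroblast and fibro-adipogenic markers. These counts are not read as a result about those cell types. Of 11 tendon and cartilage markers measured, 5 were lower and none higher in BF vs. FC and in BF vs. BG in soleus. Their average signal ran from 6.27 to 7.20 over the BF soleus arrays, against 7.35 to 8.07 in FC soleus and 7.39 to 7.95 in BG soleus, and did not overlap. Chad, a cartilage matrix protein that binds collagen, fell by 2.71 ± 0.55 in BF vs. FC (adjusted p = 0.00191) and fell by 2.28 ± 0.55 in BF vs. BG (adjusted p = 0.00738). Fmod, which binds type I fibres, fell by 2.64 ± 0.49 in BF vs. FC (adjusted p = 0.00101) and fell by 1.90 ± 0.49 in BF vs. BG (adjusted p = 0.0111, and 0.0655 without BF array 1). Tnmd, the defining marker of tendon cells, was lower in BF vs. BG (−2.17 ± 0.66, adjusted p = 0.0275) and was lost without each of 5 arrays in turn (highest adjusted p 0.127). In BF vs. BG, 1 of the 5 tendon calls stood without BF array 1, 2 stood without BG array 1 and 3 without BF array 2, BG array 2 or BG array 3, and in BF vs. FC the count fell to 3 without BF array 1 or 2 or FC array 2 or 3. In EDL the average of these markers ran from 6.76 to 8.0 in BF, against 7.75 to 8.38 in FC and 7.29 to 7.54 in BG. The part of tendon tissue in the collagen changes was not tested.

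Of 9 fibroblast and fibro-adipogenic markers, 2 were lower in BF vs. FC in soleus (Pi16 −1.32 ± 0.31 and Clec3b −0.77 ± 0.13), none was called in BF vs. BG and 2 were higher in FC vs. BG, 1 of which was lost without FC array 3 or BG array 3. Their average signal overlapped between the groups, at 7.53 to 7.95 in BF soleus, against 7.93 to 8.33 in FC soleus and 7.80 to 7.91 in BG soleus. Of 10 endothelial markers 6 were lower and 1 higher in BF vs. FC, and 4 were lower and 1 higher in BF vs. BG, with averages of 7.32 to 7.69 in BF soleus, against 7.92 to 8.12 in FC soleus and 7.93 to 7.96 in BG soleus. Of 8 smooth muscle and pericyte markers, 3 were lower in BF vs. FC and 1 in BF vs. BG (averages 8.57 to 9.08 in BF soleus, 9.12 to 9.39 in FC soleus and 8.71 to 8.85 in BG soleus). Of 10 macrophage markers 1 was higher and 1 lower in BF vs. FC and 1 higher in BF vs. BG. The higher one was Cd68 in both (3.44, adjusted p = 2.54e-05, and 3.40, adjusted p = 3.57e-05), kept without any 1 array. The lower one, Csf1r, was lost without BF array 1 or FC array 3 (highest adjusted p 0.0604). The macrophage averages, which include Cd68, were 7.20 to 7.94 in BF soleus, 7.17 to 7.39 in FC soleus and 6.82 to 7.02 in BG soleus. The median change of the 10 was −0.14 in BF vs. FC and 0.33 in BF vs. BG.

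Some markers of fat, nerve and fast fibres were higher in BF soleus. Of 5 adipocyte markers 4 were higher in each of BF vs. FC and BF vs. BG, with averages of 9.16 to 10.51 in BF soleus, against 8.19 to 8.35 in FC soleus and 7.63 to 8.20 in BG soleus, and without BF array 2 the BF vs. FC count fell to 2. Of 4 Schwann cell markers, glial genes of nerve, 3 were higher in BF vs. BG and none was called in BF vs. FC (averages 9.0 to 9.57 in BF soleus, 8.42 to 8.92 in FC soleus and 7.70 to 8.81 in BG soleus), and 1 stood without BF array 2 or BG array 1. Of 7 fast fibre markers 5 were higher in BF vs. FC and 4 in BF vs. BG (averages 13.47 to 13.90 in BF soleus, 11.67 to 12.48 in FC soleus and 11.58 to 12.79 in BG soleus), while none of 6 slow fibre markers was called between groups of soleus. The slow fibre averages were nevertheless lower in BF soleus without overlap, at 12.96 to 13.43, against 13.84 to 13.86 in FC soleus and 13.86 to 13.88 in BG soleus, with medians of −0.65 in BF vs. FC and −0.70 in BF vs. BG. In BF vs. FC in EDL, Chad (−2.27 ± 0.55, adjusted p = 0.0291), Clec3b (−0.67 ± 0.13, adjusted p = 0.00877) and Vwf (−0.84 ± 0.22, adjusted p = 0.0475) were lower and Cldn5 (0.92 ± 0.13, adjusted p = 0.00165) was higher. The first 3 of these calls were lost without single arrays (highest adjusted p 0.149, 0.0543 and 0.225). No marker was called in BF vs. BG in EDL. The part of these cell types in the collagen changes was not tested.

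Second probe sets gave a check within the arrays. Of the 36 chains 19 had more than 1 probe set, with 22 beyond the one followed. In BF vs. FC in soleus 17 of these 22 had the same sign as the followed probe set, 8 were called together with it and none was called in the opposite direction; in BF vs. BG 18 had the same sign, 5 were called together and none opposite. The second probe set of Col1a1 fell by 1.79 ± 0.52 in BF vs. FC (adjusted p = 0.0181) and did not pass in BF vs. BG (−1.34 ± 0.52, adjusted p = 0.0719). Those of Col1a2 (−2.05 ± 0.47 and −1.58 ± 0.47) and Col3a1 (−1.72 ± 0.35 and −1.50 ± 0.35) passed in both. For Col5a1, 1 of its 2 further probe sets was lower in BF vs. BG (−0.36 ± 0.12, adjusted p = 0.0443), where the followed one was not called. Further calls were made by a second probe set alone. One of the 2 further probe sets of Col9a3 was higher in BF vs. FC (0.28 ± 0.10, adjusted p = 0.0426) and in BF vs. BG (0.32 ± 0.10, adjusted p = 0.0237) in soleus, and that of Col14a1 was higher in FC vs. BG in soleus (0.75 ± 0.21, adjusted p = 0.0304). For the muscle difference of BF vs. BG these were Col1a2 (−2.30 ± 0.67, adjusted p = 0.041), Col3a1 (−1.82 ± 0.50, adjusted p = 0.0338) and Col9a3 (0.48 ± 0.14, adjusted p = 0.0369), and the second probe set of Col11a1 was called there together with the first (−2.17 ± 0.52, adjusted p = 0.0195). For soleus vs. EDL in BF they were Col3a1 (−1.12 ± 0.35, adjusted p = 0.0491) and Col5a1 (−0.43 ± 0.12, adjusted p = 0.0316).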

How the data were processed

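Soleus and EDL of BF, FC and BG mice were profiled on Affymetrix GeneChip mouse arrays, 3 for each of 6 groups, with groups and replicate numbers taken from the sample titles. The deposited values are log2 RMA signals, which the authors computed in Partek Genomics Suite 6.6 over all arrays; RMA normalizes the arrays to a common distribution, so a change in total RNA is not seen. Of 22690 probe sets 64 controls were left out and 22626 tested. Names came from the platform annotation, by which 20393 probe sets name 1 gene, 691 several and 1606 none; 20364 matched a current symbol through their Entrez number, giving 12393 genes. A model with 1 mean per group was fitted over 18 arrays with limma 3.58.1 in R 4.3.3 (12 residual and 5.1 prior degrees of freedom), with p values adjusted by Benjamini-Hochberg over all tested probe sets; it was tested on simulated data. Figures used matplotlib 3.10.9 in Python 3.11.15.

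The collagen members, the gene lists and the naming rule were chosen with earlier results of these data known. The rule gives array values for all chains of types I, III, IV, V and VI, up to 6 called chains with the largest change in each soleus comparison and up to 3 in each other comparison, and up to 4 called genes of each list. The lists were collagen modification and folding, procollagen cleavage and cross-linking, collagen breakdown, collagen receptors, the TGF-beta pathway, laminins and other basement membrane proteins, and markers of fibroblasts, tendon and cartilage, endothelium, smooth muscle and pericytes, macrophages, adipocytes, Schwann cells, slow and fast fibres. List genes without a probe set of their own, such as Adamts2, Loxl2 and Itga11, were not analysed here. Alternatives were a replicate block, separate fits per muscle, ordinary contrasts, another prior, array weights, a filter on dim probe sets, the mean of the probe sets of a gene, median centring, the methods' thresholds and leaving out each array. The number of arrays limits the precision. Same-numbered arrays deviated together in some pairs of groups and not in others. All 3 correlations were positive between FC soleus and FC EDL (0.373, 0.159 and 0.199) and between BG and FC in EDL (0.147, 0.156 and 0.0732). The other same-numbered pairs ran from −0.133 to 0.297, and pairs of different number from −0.318 to 0.223. Nothing says that same-numbered arrays came from 1 mouse. The descriptions of arrays 2 and 3 of BF EDL name another flight than Bion M1, taken as a slip.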

Additional observations from a re-analysis of the deposited data

Results flagged for a closer look

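The BF change was called as different between the muscles for 2 chains, by a test of the difference itself. The share of chains called was 2.78% for BF vs. BG and 2.78% for BF vs. FC, where 9.26% and 2.04% of all genes were called. These counts were below or near the shares of all genes and are not read as a result about the collagens. Col11a1 had a difference of -1.954 between its BF vs. BG change in soleus and that in EDL (adjusted p = 0.0293), being lower in BF soleus and not called in EDL. Col19a1 had a difference of 1.524 between its BF vs. FC change in soleus and that in EDL (adjusted p = 0.0325), from low signals in soleus, and its second probe set was not called (-0.02, adjusted p = 0.976). Both calls were lost when single arrays were left out, as given with the values above.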

How the results depend on the processing

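With 3 arrays a group, many calls lay near the threshold. No named change reversed its sign under any alternative. Array quality weights gave 18 for BF vs. BG in soleus, 8 higher and 10 lower, against 3 and 8 in the main fit. For BF vs. FC in soleus they gave 4 higher and 14 lower, against 1 and 14. They gave 7 for FC vs. BG in soleus, 6 for BF vs. FC in EDL and 1 for FC vs. BG in EDL. The count was 10 for each muscle difference and 9 for soleus vs. EDL in BF. Ordinary contrasts without moderation gave 6 calls in BF vs. BG of soleus, 2 in FC vs. BG of soleus, 1 in BF vs. FC of EDL, 0 for each muscle difference and 2 for soleus vs. EDL in BF. The methods' thresholds (above 2-fold, with an unadjusted p in EDL) gave 6 calls in BF vs. BG of soleus, 2 in FC vs. BG of soleus, 2 in FC vs. BG of EDL and 2 for soleus vs. EDL in BG. The trend and robust prior and the filter on dim probe sets each gave 1 for BF vs. BG in EDL, and separate fits gave 1 for BF vs. FC in EDL. The muscle difference of BF vs. BG had 2 calls with the dim filter, 4 with the mean of the probe sets and 2 with median centring, and that of BF vs. FC had 0 with the dim filter and 0 with the mean of the probe sets.

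Same-numbered arrays deviated together in some pairs of groups only, and the labels do not say that they are paired. The replicate numbers were therefore not taken to pair the arrays in the main fit, and whether they do was not settled. With the replicate block within muscle, the muscle difference of BF vs. BG had 4 calls and soleus vs. EDL in BG had 0, and with the replicate block across muscles that muscle difference had 3. For BF vs. FC in soleus the block gave 14 against 15, and for BF vs. BG in soleus 8 against 11. The block across muscles gave 6 calls against 4 for soleus vs. EDL in FC.

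Leaving out 1 array at a time gave 6 to 12 calls for BF vs. BG, 12 to 16 for BF vs. FC and 1 to 4 for FC vs. BG in soleus, and 0 to 1, 0 to 5 and 0 to 1 for the same in EDL. It gave 0 to 5 for the muscle difference of BF vs. BG, 0 to 3 for that of BF vs. FC, and 0 to 6, 2 to 7 and 4 to 5 for soleus vs. EDL in BF, BG and FC. In BF vs. FC in soleus 10 of 15 calls stood without any 1 array, and in BF vs. BG 5 of 11 did. Without soleus BF array 2, BF vs. BG in soleus had 5 chains higher and 6 lower. The excess of lower chains in BF vs. BG was thus small in that setting and with array weights. The cause of these shifts was not tested.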
